A study of Mus musculus with 2 samples.

Results

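Homeobox transcription factors were examined in mammary luminal cells sorted for high or low activity of the Tbx3 locus. The members were all genes with a probe set annotated to 1 symbol alone, for Six-family genes and for the Hoxa to Hoxd, Msx, Dlx, Irx, Pbx, Meis, Pitx, Lhx, Pax, Prrx, Emx, Barx, Satb and Cux families, each symbol being the family name and a number. This gave 75 genes, measured by 131 probe sets, of 13869 genes in the value table, and of several probe sets the one with the highest average log2 signal stood for the gene. Of 97 mouse genes with such a symbol in the RefSeq gene table, the other 22 are not analysed here.

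The populations compared were the luminal Venus High cells and the luminal cells with low or no Venus, named Venus Low, both sorted from the same pool of mammary epithelial cells of 3 adult virgin female mice, 5 months old, on the FVB background. These mice are heterozygous for Tbx3: the Venus coding sequence, a variant of yellow fluorescent protein, sits at the start codon of 1 Tbx3 allele and prevents that allele from making Tbx3, so both populations carry a single working copy. Dead cells, CD45+ lymphocytes and stromal cells were gated out, luminal cells were taken by CD24 and CD49f, and 200000 cells of each population were sorted. RNA with an integrity number above 9.4 was hybridized on Affymetrix GeneChip arrays of the mouse genome, 1 array per population, so no difference below has a replicate check or a p-value, and the number of arrays limits the precision.

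Homeobox proteins bind DNA through the homeodomain, a small helical fold, and in embryos they set the identity of body regions and organs. Hox genes lie in 4 clusters and are numbered by paralog group along them. Pbx and Meis proteins, of the TALE class, bind DNA together with Hox proteins. Msx genes are targets of BMP signaling and take part in the formation of the embryonic mammary bud in mice. Cux and Satb proteins carry additional DNA-binding domains next to the homeodomain, and Six-family proteins work with Eya co-activators. Certain Pax proteins, which bind DNA through a paired domain, lack a complete homeodomain.

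All values are log2 array signals unless called linear signals. The lowest value on each array equals the log2 of 10, called the floor here. Where 1 array lies at it the difference is a lower bound, and where both do there is no difference to give. The table holds 29338 probe sets, of which 12968 had the higher value in Venus High cells, 16370 lay at the floor in both populations and 0 had the lower value in Venus High cells. A gene that is lower in Venus High cells is therefore not seen, differences cannot be negative, and each median over genes lies at or above 0 by construction. Whether the 22 homeobox genes outside the table were lower, or are missing for another reason, cannot be told apart. For the same reason no direction is given for the family as a whole.

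Marker genes are given as a description of the sorted populations. In a table with 0 probe sets lower in Venus High cells, no marker could have gone against the sort. Tbx3, the locus sorted on, had a log2 signal of 8.72 in Venus High cells against 3.62 in Venus Low cells. All 6 hormone-sensing markers in the table (of 8 listed), Tbx3, Esr1, Pgr and Foxa1 among them, were at least 4-fold higher. With a signal of at least 100, 2.38% of all genes in the table were 4-fold higher. The listed markers Prlr and Ly6a are not analysed here. Of 8 luminal markers 4 were in the table and 0 were 2-fold higher, against 5.99% of all genes in the table. The keratin genes Krt19 and Krt8 had 12.94 and 13.22 in Venus High against 11.96 and 13.13 in Venus Low cells. Cd24a had 13.17 in Venus High against 12.39 in Venus Low cells, and Cdh1 had 12.03 in Venus High against 11.84 in Venus Low cells. With the arrays centred on their medians, the differences of Krt8 and Cdh1 are -0.57 and -0.47, so these have no settled direction. Of 9 alveolar progenitor markers, 8 are not analysed here and Ehf was at the floor in both populations on the probe set in the table. Since the table has 0 probe sets with the lower value in Venus High cells, markers at the floor cannot show whether other cells were present among the Venus Low cells. Of the markers of other cell types, all 6 basal genes in the table (of 8 listed) and all 3 immune genes (of 6) were at the floor in both populations on these probe sets, and of 3 endothelial genes (of 5) Kdr alone lay above it, with 3.78 in Venus High cells. Of 6 fibroblast genes in the table (of 8), Col3a1, Lum and Pdgfrb were at the floor in both populations. Col1a1 had 3.47 in Venus High cells, and Col1a2 had 3.84 in Venus High against 3.68 in Venus Low cells. The summed linear signal of the 6 genes was 120 in Venus High against 82.5 in Venus Low cells. Dcn, which encodes the matrix proteoglycan decorin, had 6.01 in Venus High against 4.89 in Venus Low cells.

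Few of the 75 homeobox genes in the table were detected, and among those that were, Msx2 and Meis1 differed most between the populations. Homeobox genes outside the table, where any gene lower in Venus High cells would be, are not covered by this. Of the 75 genes, 58 (77.3%) were at the floor in both populations, against 48.2% of all genes in the table. Another 11 lay above the floor but under a linear signal of 100 (6.64 on the log2 scale), the level used here as a minimum. The remaining 6 genes (8% of the 75, against 27.7% of all genes) reached that minimum, and they were Msx2, Meis1, Pbx2, Cux1, Hoxb3 and Hoxb2.

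Genes were called higher at a log2 difference of 2 or more, which is 4-fold, if the signal reached 100. Msx2 and Meis1 met this rule, which is 2.67% of the 75 genes, and 2.38% of all genes in the table were called by it (330 of 13869). At 2-fold, Hoxb2 and Hoxb3 were added, 5.33% of the 75 genes against 5.99% of all genes. Over the whole family, the shares thus lie near those of the table. Of the 6 genes with a signal of at least 100, 5 reached it in Venus High cells only, so the minimum itself selected genes that differ and no share or median over the 6 is set against other genes.

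**Figure D1:**
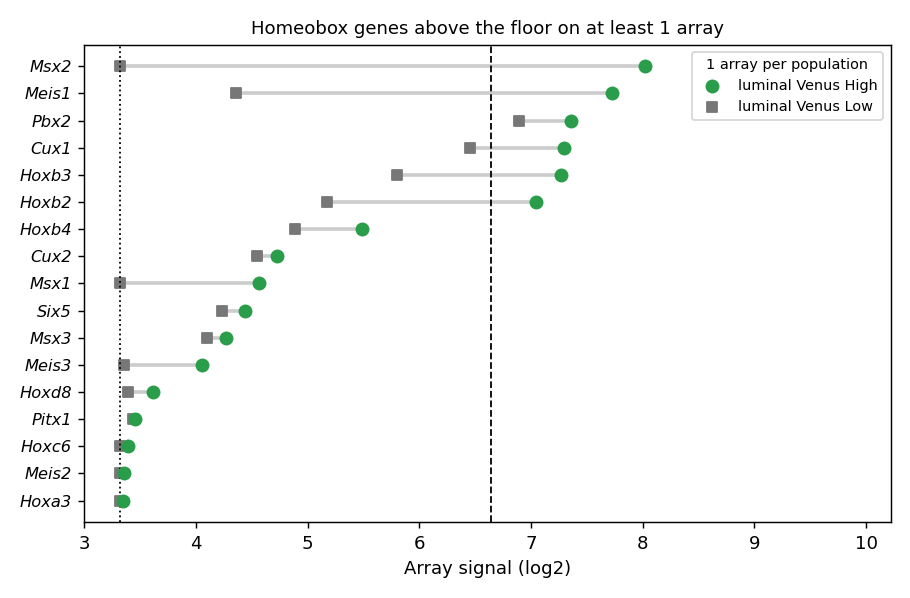
Array signal (log2, horizontal axis) of the 17 homeobox genes above the floor on at least 1 array, with green circles for luminal Venus High and grey squares for luminal Venus Low cells (1 array each). A dotted line stands at the floor, a signal of 10, and a dashed one at 100. Msx2 and Meis1 have the widest gaps, 4.70 and 3.37, and only Pbx2 lies to the right of the dashed line in both populations.

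**Figure D2:**
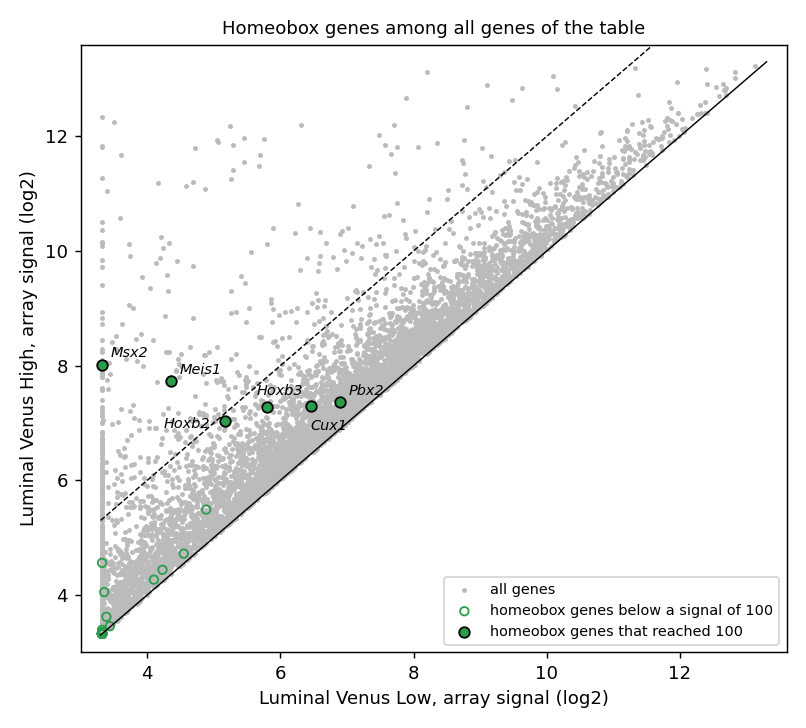
Array signal of each gene in luminal Venus High cells (log2, vertical axis) against luminal Venus Low cells (log2, horizontal axis), with all 13869 genes in grey and the 75 homeobox genes in green, filled for the 6 that reached a signal of 100. The solid line marks equal signals, below which the table holds no gene, and the dashed line a 4-fold difference. Msx2 and Meis1 lie above the dashed line and Hoxb2 just below it.

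Msx2, a homeodomain repressor that acts downstream of BMP signaling, had the largest difference of the 75 genes, being at the floor in Venus Low cells. Its log2 signal was 8.02 in Venus High cells against 3.32 in Venus Low cells, on a linear scale 259 and 10. The difference of at least 4.70 (at least 25.9-fold) ranked 62 among the 3847 genes that reached a signal of 100. It depends on the floor, being 3.02 with the floor at 32 and 1.37 with the floor at 100, and on the scaling of the arrays, being 4.04 after median centring and 4.38 after quantile normalization, so the fold is a bound on the deposited scale alone. Another Msx2 probe set had 3.55 in Venus High cells and was also at the floor in Venus Low cells. The call therefore rests on 1 probe set, and with the median of the pair Msx2 lies below a signal of 100. Of its relatives, Msx1 had 4.56 in Venus High cells and lay at the floor in Venus Low cells, and Msx3 had 4.27 in Venus High against 4.10 in Venus Low cells. Another Msx1 probe set was at the floor in both populations. The linear signals of Msx1 and Msx3 in Venus High cells were low, at 23.6 and 19.2, and Msx3 had 17.2 in Venus Low cells.

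Meis1, a TALE homeodomain protein that binds DNA with Hox and Pbx proteins, was 10.4-fold higher in Venus High cells. Its log2 signal was 7.73 in Venus High cells against 4.35 in Venus Low cells, a difference of 3.37 that ranked 156 among the 3847 genes. Scaling the arrays otherwise gives 2.71 (median centring) or 2.61 (quantile normalization), and a floor at 100 gives 1.08. Another Meis1 probe set, which stayed under a signal of 100, had 6.46 in Venus High against 4.81 in Venus Low cells, a difference of 1.64. Without probe sets of the first one's type (_a_at) Meis1 is not called for this reason. Both probe sets were higher in Venus High cells, but so is every probe set above the floor here, which makes this no added support. The gap between their differences, at 1 gene, exceeds the pooled SD of 0.31 for probe sets of the same gene. That SD comes from 1062 genes for which 2 or more reached 100, within these 2 arrays and not between animals. Since the second Meis1 probe set stayed under 100, the SD is not matched to it. Meis2 reached 3.35 on the highest of its 4 probe sets and Meis3 had 4.05 in Venus High against 3.35 in Venus Low cells. Meis1 and Hox genes are also expressed in fibroblasts. The fibroblast genes Dcn, Col1a2 and Col1a1 had log2 differences of 1.12, 0.16 and 0.15, the last with Venus Low cells at the floor. Col3a1, Lum, Pdgfrb and Prrx1 were at the floor in both populations. The part of fibroblast RNA in the Meis1 difference was not tested.

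The promoters of these called genes are shown because they had the largest differences of the 75 homeobox genes, as 250 bases before to 50 bases after the transcription start, from RefSeq (GRCm38.p6). Capitals mark the 6 letters TAATTA, a core bound by many homeodomains. The Msx2 sequence is chr13:53472731-53473030 on the minus strand and the Meis1 sequence is chr11:19018920-19019219 on the minus strand.
Msx2: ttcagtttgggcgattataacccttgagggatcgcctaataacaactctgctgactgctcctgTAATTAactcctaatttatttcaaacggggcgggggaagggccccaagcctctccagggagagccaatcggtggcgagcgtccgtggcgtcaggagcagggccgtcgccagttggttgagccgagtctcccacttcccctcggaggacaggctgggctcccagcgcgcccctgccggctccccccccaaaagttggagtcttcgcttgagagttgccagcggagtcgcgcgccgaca
Meis1: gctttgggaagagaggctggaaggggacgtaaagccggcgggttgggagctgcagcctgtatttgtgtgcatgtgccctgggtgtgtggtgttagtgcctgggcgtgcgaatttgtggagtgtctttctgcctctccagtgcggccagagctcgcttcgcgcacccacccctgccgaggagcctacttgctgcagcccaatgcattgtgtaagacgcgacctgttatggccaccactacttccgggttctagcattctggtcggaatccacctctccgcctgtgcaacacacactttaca
TAATTA was found once in the Msx2 window, beginning 187 bases before the start, and not in the Meis1 window. It occurred in 5.29% of 32851 promoters and in 5 of 67 promoters of 55 homeobox genes. On both strands, the T-box core GGTGTGA (3.98% of all promoters), the MEIS core TGACAG (19.2%), the SMAD box GTCTAGAC (0.213%) and the estrogen response element GGTCANNNTGACC (0.07%) were in neither window. Over the 67 promoters TGACAG was in 12 and the other 3 were in 0. A match here is a match of letters, and its absence concerns this window only.

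Among the HOX cluster genes in the table, signal was found mainly at 3 neighbours of the Hoxb cluster. Hoxb3 and Hoxb2, members of anterior paralog groups that pattern the hindbrain in embryos, reached a signal of 100, and Hoxb4 lay above the floor. Hoxb3 had a log2 signal of 7.27 in Venus High against 5.80 in Venus Low cells, or linear signals of 155 and 55.8, and was 2.77-fold higher. Its other probe set had 4.87 in Venus High against 3.96 in Venus Low cells, a difference of 0.91. Hoxb2, with 1 probe set, had 7.04 in Venus High against 5.17 in Venus Low cells and was 3.65-fold higher. The differences of 1.47 for Hoxb3 and 1.87 for Hoxb2 ranked 482 and 355 among the 3847 genes, and with the floor at 100 they were 0.63 and 0.40. Median centring puts Hoxb3 at 0.81, under 2-fold, and Hoxb2 at 1.21. Hoxb4 had 5.49 in Venus High against 4.89 in Venus Low cells, a difference of 0.60 that is -0.06 after median centring, so it has no settled direction. Sorted by start coordinate in the RefSeq table, Hoxb2, Hoxb3 and Hoxb4 lie next to each other. Their neighbours on either side, Hoxb1 and Hoxb5, were at the floor in both populations, as were Hoxb7 and Hoxb13. Hoxb6, Hoxb8 and Hoxb9 are not analysed here.

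The genes of the other clusters in the table were at or near the floor. Of the 9 Hoxa genes in the value table, 8 were at the floor in both populations, and the exception, Hoxa3, had 3.35 in Venus High cells. Likewise 6 of 7 Hoxc and 6 of 7 Hoxd genes were at the floor, and the exceptions were Hoxc6 with 3.39 and Hoxd8 with 3.62 in Venus High cells. Over the 4 clusters, 24 of 30 genes were at the floor in both populations. Genes of these clusters outside the table, Hoxd9 among them, are not analysed here. Hoxa9, which together with Hoxb9 and Hoxd9 is needed for mammary development in pregnant mice, was at the floor on both of its probe sets in the table.

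**Figure D3:**
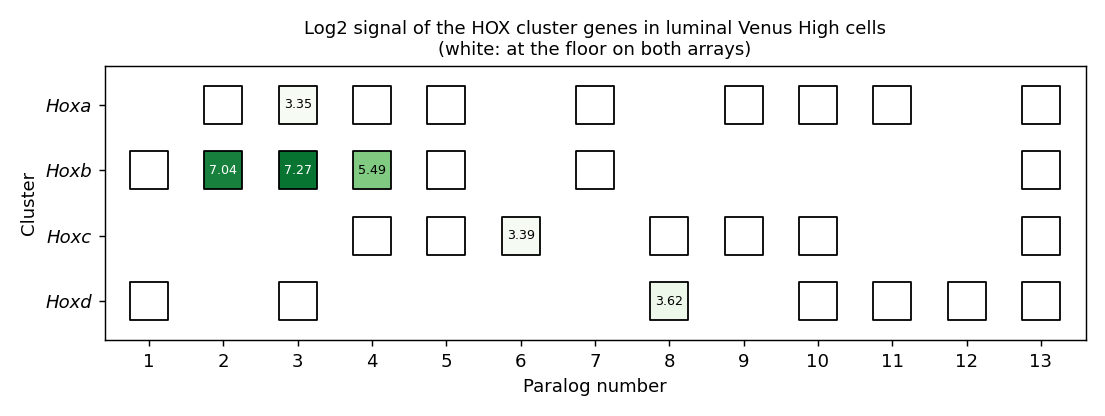
The 30 HOX genes in the table by cluster (vertical axis) and paralog number (horizontal axis), with the log2 signal in luminal Venus High cells printed in each filled square. White squares are genes at the floor in both populations, and an empty place holds no gene analysed here. Hoxb2, Hoxb3 and Hoxb4 hold 7.04, 7.27 and 5.49, and the other filled squares hold 3.35 to 3.62.

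The other genes that reached a signal of 100, Pbx2 and Cux1, differed less between the populations. Pbx2, a TALE partner of Hox proteins, had a log2 signal of 7.36 in Venus High against 6.89 in Venus Low cells. It was the homeobox gene, alone among the 75, with a signal of at least 100 in both populations (164 in Venus High against 119 in Venus Low cells). Its difference of 0.46 is close to the median of all genes that reached 100 and is -0.19 after median centring, and its other probe set had 5.38 in Venus High against 5.32 in Venus Low cells. Pbx2 therefore has no settled direction. Cux1, a CUT-class homeodomain protein known as a transcriptional repressor, had 7.29 in Venus High against 6.45 in Venus Low cells, a difference of 0.84 that is 0.18 after median centring. Of its 8 probe sets, 5 lay above the floor, and the remaining 3 were at the floor in both populations. All 5 were higher in Venus High cells, but every probe set above the floor is, so their shared direction adds no support. Their differences were 0.37, 0.51, 0.78, 0.84 and 1.07, and median centring takes 0.66 off each. On the probe set used, quantile normalization gives 0.13. The direction of Cux1 thus depends on the probe set and the scaling. Cux2, a relative best known from the brain, had 4.72 in Venus High against 4.55 in Venus Low cells.

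**Figure D4:**
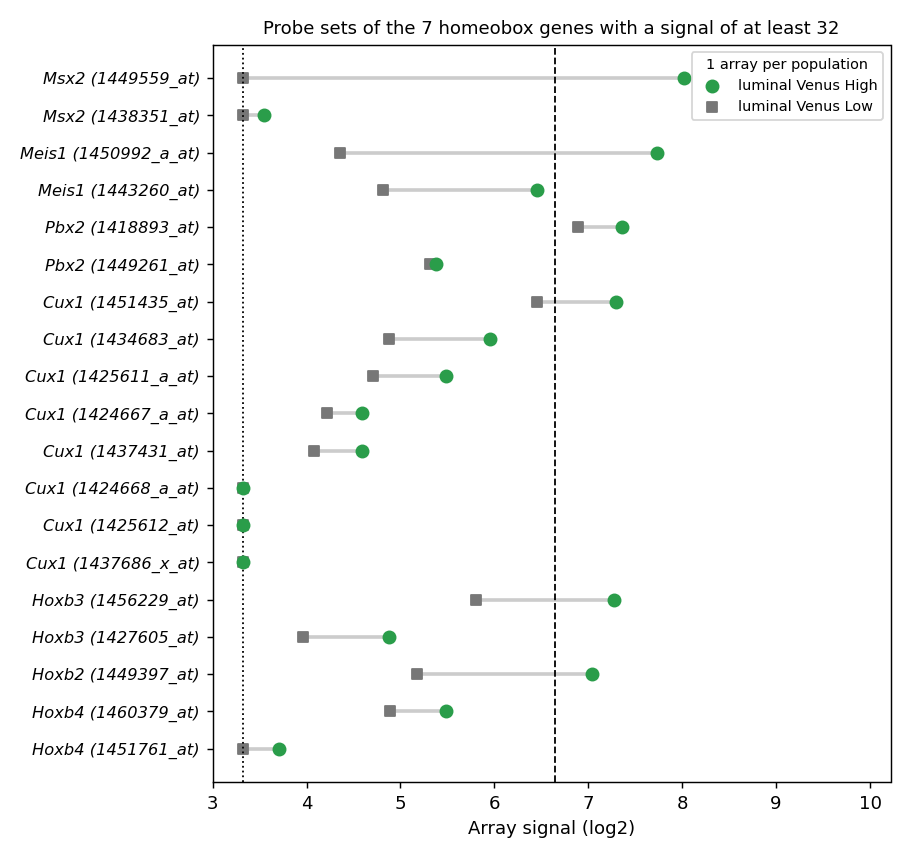
Array signal (log2, horizontal axis) of every probe set in the table of the 7 homeobox genes with a signal of at least 32, with green circles for luminal Venus High and grey squares for luminal Venus Low cells (1 array each). A dotted line stands at the floor and a dashed one at 100. The Meis1 probe sets have gaps of 3.37 and 1.64, whereas the second Msx2 probe set lies near the floor with 3.55 in Venus High cells.

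The remaining families gave almost no signal on the probe sets in the table. All 8 Lhx genes, the LIM-homeodomain factors of neurons and other tissues, and all 8 Dlx, Barx and Emx genes were at the floor in both populations. Among the 12 Pax, Pitx and Prrx genes 11 were at the floor, and Pitx1, a hindlimb and pituitary factor, had 3.45 in Venus High against 3.44 in Venus Low cells. Prrx1, a gene of mesenchymal cells, was at the floor on all 6 of its probe sets. Of 4 Six-family genes Six5 alone was above the floor, with 4.44 in Venus High against 4.23 in Venus Low cells. Satb1, a chromatin organizer, and the TALE genes Irx4, Irx6 and Pbx4 were at the floor. Genes of these families outside the table, Dlx5, Barx2, Pax2, Six4, Irx1, Irx2, Irx3, Irx5 and Pbx3 among them, are not analysed here.

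Genes that work with these factors were examined as lists. Median centring takes 0.66 off each difference here too, so list genes with a smaller difference, Eya2 and Ldb1 below among them, have no settled direction. At 2-fold, 5.99% of all genes in the table were called, and the lists are too small to set a count against that share. Homeobox genes of other families gave little signal: of 92 listed, 73 were in the table, 59 were at the floor in both populations and the LIM-homeodomain gene Lmx1b alone came above 100, with 7.35 in Venus High against 6.37 in Venus Low cells. Below that level, Hopx, which encodes a small homeodomain-like protein that does not bind DNA, had 6.39 in Venus High against 4.95 in Venus Low cells, and Zfhx2 had 4.72 in Venus High cells and lay at the floor in the Venus Low population. Of 11 TALE partners of Hox proteins, 8 were in the table and 4 reached 100, among them Meis1 and Pbx2 themselves. Tgif1, a TALE repressor, had 10.63 in Venus High against 10.42 in Venus Low cells, and Pknox1 had 6.98 in Venus High against 6.71 in Venus Low cells. Their differences of 0.21 and 0.27 are -0.45 and -0.39 after median centring, so neither has a settled direction. Only Meis1 of this list was at least 2-fold higher, a rule that 5.99% of all genes in the table met.

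The cofactors of Six-family proteins were all in the table. Eya2 had 7.59 in Venus High against 7.04 in Venus Low cells and Eya3 had 6.84 in Venus High against 5.94 in Venus Low cells, and neither was 2-fold higher. Dach2, which encodes a Dachshund family co-repressor, had 6.43 in Venus High against 3.67 in Venus Low cells, a difference of 2.76 under the signal minimum, and Eya1, Eya4 and Dach1 were at the floor. Of 6 LIM cofactors, 3 had a value, and Ldb1 alone reached 100, with 7.36 in Venus High against 7.08 in Venus Low cells.

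Of 18 genes of the BMP and Msx axis 14 had a value, 6 exceeded a signal of 100 and 1 was at least 4-fold higher, a rule that 2.38% of all genes in the table met. This was Id3, a target of BMP signaling that blocks basic helix-loop-helix factors, with 10.14 in Venus High against 4.33 in Venus Low cells (a difference of 5.81, or 3.49 with the floor at 100). The receptor gene Bmpr1b, below a signal of 100, had 5.58 in Venus High cells and was at the floor in Venus Low cells. Bmpr1a had 8.83 in Venus High against 8.21 in Venus Low cells, a difference that is -0.04 after median centring. Bmpr2, Smad1, Smad5 and Smad7, which also reached 100, had differences of 0.17, 0.15, 0.31 and 0.003. Below 100, Smad6 and Id4 had differences of 0.04 and 0.24. The ligand genes Bmp4, Bmp5, Bmp6 and Bmp7 were at the floor in both populations, and Bmp2, Smad4, Id1 and Id2 are not analysed here. Of 17 chromatin regulators of Hox genes, 13 were in the table and 4 of them reached 100. Of these, 0 were 2-fold higher, a rule that 5.99% of all genes in the table met. Among these 4 the Polycomb gene Bmi1 differed most, with 8.74 in Venus High against 8.03 in Venus Low cells, and below a signal of 100 another Polycomb gene, Cbx8, had 5.66 in Venus High against 4.48 in Venus Low cells. Kdm6b, which encodes a histone demethylase, had 7.41 in Venus High against 7.20 in Venus Low cells, and the histone methyltransferase gene Ezh2 had 8.43 in Venus High against 8.41 in Venus Low cells.

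**Figure D5:**
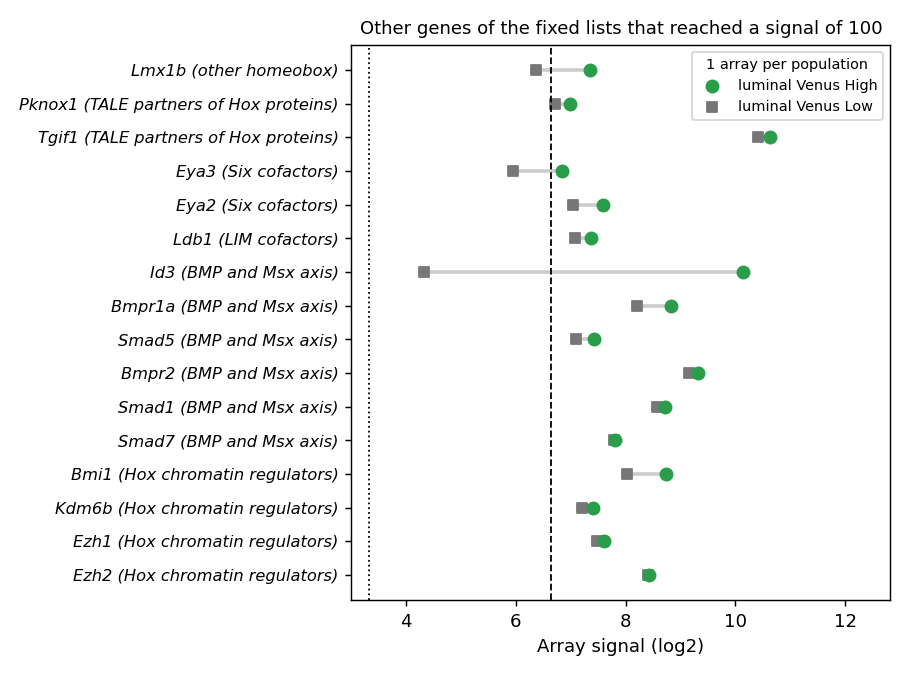
Array signal (log2, horizontal axis) of the genes that reached a signal of 100 in the lists of other homeobox genes, TALE partners, cofactors of Six-family proteins, LIM cofactors, BMP and Msx axis and Hox chromatin regulators, without the members shown above, with green circles for luminal Venus High and grey squares for luminal Venus Low cells (1 array each). A dotted line stands at the floor and a dashed one at 100. Id3 has the widest gap, 5.81, and the gap of each other gene is below 1.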

How the data were processed

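RNA of both sorted populations was measured, on 1 array each. The deposited values are log2 signals: after log2 transformation the authors used BRB Array software to normalize and centre each sample, and MAS5 is named in the submitters' processing notes. What the values were normalized to is not given in the sources, so whether the arrays share a scale is unknown. Over probe sets that reached a signal of 100, the medians were 8.21 (Venus High) and 7.55 (Venus Low). Columns of other samples numbered 0.

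Gene names came from the platform's annotation: 22223 probe sets carry a single symbol and were used, while 602 with more than 1 symbol and 6513 without an entry were left out. Updating symbols through RefSeq gene identifiers left 75 members. A gene was counted when its log2 difference, Venus High minus Venus Low, was at least 2 (or 1) and its higher signal at least 100. Every member with a signal of at least 32 was named. Of the lists of cofactors, regulators and other homeobox genes, members at least 4-fold higher, otherwise up to 3 with the largest differences, were named by rule. Cell type markers and any further gene were picked with their values in view. The members and lists were chosen with earlier results of these data known. No replicates exist, so no test was made. Alternatives were median centring, quantile normalization, floors of 32 and 100, other probe set rules, signal minimums of 50, 200 or none, and updated symbols. Python 3.11.15, numpy 2.4.6, pandas 2.3.3 and matplotlib 3.10.9 were used. The code of the calling rule was run on simulated data, in which the raised genes had a Venus Low signal of at least 100. That run does not cover calls near the floor, such as those of Msx2 and Meis1.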

Additional observations from a re-analysis of the deposited data

How the results depend on the processing

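With 1 array per population nothing measures the spread between animals, and the order of low signals depends on the floor. The 2 genes at least 4-fold higher, Msx2 and Meis1, were counted also after median centring, after quantile normalization, with the floor at 32, with a signal minimum of 50, 200 or none, and with updated symbols. The count was 0 with the floor at 100 or with the probe set of lowest mean, and 1 with the median of probe sets (Meis1) or without the probe set types _a_at, _s_at and _x_at (Msx2). Of the 4 genes at least 2-fold higher, 2 were left with the floor at 100, the median of probe sets or a signal minimum of 200, and 1 with the probe set of lowest mean. The 6 genes that reached the minimum became 2 with the median of probe sets or a minimum of 200, 1 with the probe set of lowest mean, and 75 with no minimum. Over the genes that reached the minimum, 5 of 6 in Venus High cells only, the median log2 difference lies high by that selection and is given as a description. It was 1.67, and 1.01 after median centring, 0.93 after quantile normalization, 0.64 with the floor at 100, 2.19 with the median of probe sets, 4.03 with a signal minimum of 200 and 0 with none. After median centring or quantile normalization Pbx2 (-0.19 and -0.23) and Hoxb4 (-0.06 and -0.22) were negative. Of 77 single-gene values under these alternatives, 30 moved by more than the SD of 0.31 between probe sets and 47 did not. The 47 include every value under another signal minimum, which cannot change a single-gene difference, and under updated symbols, which changed none. The split is therefore no measure of how stable the differences are. No paired analysis was possible because each population has 1 sample and the labels give no replicate numbers.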
